A study of Mus musculus with 4 samples.

Results

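The genes described here are the fibroblast growth factors (FGFs), their receptors, and the inhibitors and transcription factors that FGF signalling switches on. The members are every measured gene whose symbol is Fgf or Fgfr followed by a number, with Fgfrl1, and 11 named feedback and target genes. Of these 11 genes, Spry3 was not analysed here, which left 37 members among 23185 genes with a symbol. They comprise 22 Fgf genes, 5 receptor genes and 10 feedback and target genes.

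RNA of 4 mouse cell populations was measured on Affymetrix arrays, with a single array for each population. Day0 is freshly isolated club cells, the secretory cells of the airway lining, from adult lung. The population named 3w+Dox, or Club-iPL in the labels, is these cells after 3 weeks in medium with doxycycline, a drug used to switch on inducible transgenes. The population named 3w+Dox+2w-Dox was then kept for 2 weeks in medium without the drug, and is called the cells after withdrawal, or withdrawn cells, below. The last population, iPS, consists of induced pluripotent stem cells that the labels call Club-iPS. The labels give neither the mouse strain, the transgene, the promoter that drives it, nor how many animals or clones stand behind an array, and all cultures were kept at 37°C in 5% CO2. No club cells cultured without doxycycline were analysed here, so the drug and the time in culture cannot be told apart.

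Values are log2 signals made by robust multi-array averaging (RMA). A difference of 1 is 2-fold and a difference of 2 is 4-fold. A gene was called higher or lower when its signals were at least 4-fold apart and the brighter one reached 6.67, the median of all values, and the same count at 2-fold is given beside it. With 1 array per population there is no error estimate and no test, and precision is limited by the number of arrays. Signals of different genes are not compared with each other, because probe sets differ in their response. The labelled cell types carried their markers. The club cell gene Scgb1a1 read 13.52 at Day0 and the pluripotency gene Nanog read 12.87 in iPS cells, against at most 6.27 on the other arrays. The Day0 array also carried Sftpc, a marker of alveolar type 2 cells, at 13.49 and Foxj1, a marker of ciliated cells, at 11.19.

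FGFs are signalling proteins that, together with heparan sulfate on the cell surface, bind receptor tyrosine kinases and activate the RAS-ERK cascade. In the lung, Fgf10 and Fgf7 come mainly from mesenchyme and act on epithelium through the IIIb splice form of Fgfr2, and Fgf10 drives branching of the airway tree. In pluripotent cells, Fgf4 is made by the cells themselves and its signal prepares them to differentiate. ERK activity induces its own brakes, among them the Sprouty and Spred proteins and the phosphatase Dusp6, and the ETS transcription factors Etv4 and Etv5, whose RNA is widely used as a readout of FGF signalling. Fgf11, Fgf12, Fgf13 and Fgf14 belong to the family by sequence but stay inside the cell and are not ligands of these receptors.

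Start-site windows are shown for Fgf2, Fgf7 and Fgf10, the ligand genes that were far brighter in the cultured club cells than at Day0, and for Fgf4, the ligand gene that was bright in iPS cells. Each window runs from 250 bases before to 50 bases after the annotated start in RefSeq, build GRCm38.p6, 5′ to 3′ on the plus strand, at chr3:37348403-37348702, chr2:126034408-126034707, chr13:118714449-118714748 and chr7:144861136-144861435. Capitals mark the GC box, GGGCGG or its reverse complement.
Fgf2: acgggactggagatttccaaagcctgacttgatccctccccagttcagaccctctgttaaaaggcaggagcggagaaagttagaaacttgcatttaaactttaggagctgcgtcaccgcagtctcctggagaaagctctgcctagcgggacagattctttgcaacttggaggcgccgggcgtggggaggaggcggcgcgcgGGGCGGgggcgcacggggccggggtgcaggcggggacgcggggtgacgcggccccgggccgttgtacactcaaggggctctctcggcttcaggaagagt
Fgf7: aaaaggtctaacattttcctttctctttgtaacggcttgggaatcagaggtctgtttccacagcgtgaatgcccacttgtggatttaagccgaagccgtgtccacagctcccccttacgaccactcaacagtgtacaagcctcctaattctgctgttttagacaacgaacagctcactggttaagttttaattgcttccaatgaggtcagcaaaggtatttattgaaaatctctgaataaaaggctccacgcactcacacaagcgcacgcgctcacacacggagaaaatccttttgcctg
Fgf10: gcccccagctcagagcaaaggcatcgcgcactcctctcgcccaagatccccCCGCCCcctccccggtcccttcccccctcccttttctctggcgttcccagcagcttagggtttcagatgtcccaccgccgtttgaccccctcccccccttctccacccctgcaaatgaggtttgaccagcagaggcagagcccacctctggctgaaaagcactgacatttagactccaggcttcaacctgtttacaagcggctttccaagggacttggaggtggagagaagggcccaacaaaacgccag
Fgf4: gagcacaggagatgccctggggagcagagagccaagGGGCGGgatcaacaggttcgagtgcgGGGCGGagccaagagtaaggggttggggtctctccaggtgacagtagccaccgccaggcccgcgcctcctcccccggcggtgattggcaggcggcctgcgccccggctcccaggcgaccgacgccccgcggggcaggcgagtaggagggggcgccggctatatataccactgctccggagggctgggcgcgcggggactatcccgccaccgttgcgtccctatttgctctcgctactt
The windows differ in base composition. The Fgf7 window is 45.7% G and C with 11 CpG dinucleotides, the Fgf10 window 60.7% with 10, the Fgf2 window 62.7% with 24, and the Fgf4 window 69.7% with 28. Over all 32851 windows of the table the median was 52.7% with 7 CpG dinucleotides, and over the 37 windows found for members it was 62.7% with 19. The search covered, on both strands, the GC box, an ETS motif (CCGGAA), an AP-1 motif (TGANTCA), a cyclic AMP response element (TGACGTCA), a TATA box (TATAAA) and an E box (CACGTG), none of which can hold another. The GC box was in 35.7% of all windows and in 23 of the 37 windows found for members. These 37 windows belong to 28 genes and are richer in G and C, so the 2 shares are not like for like. It occurred once in the Fgf2 window, once in the Fgf10 window and 2 times in the Fgf4 window. The Fgf7 window held none of the 6 motifs, and none of the other 5 motifs was in the other windows. The ETS motif was in 14.9% of all windows and in 5 of the 37 member windows. These are matches of letters and say nothing about binding.

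**Figure D1:**
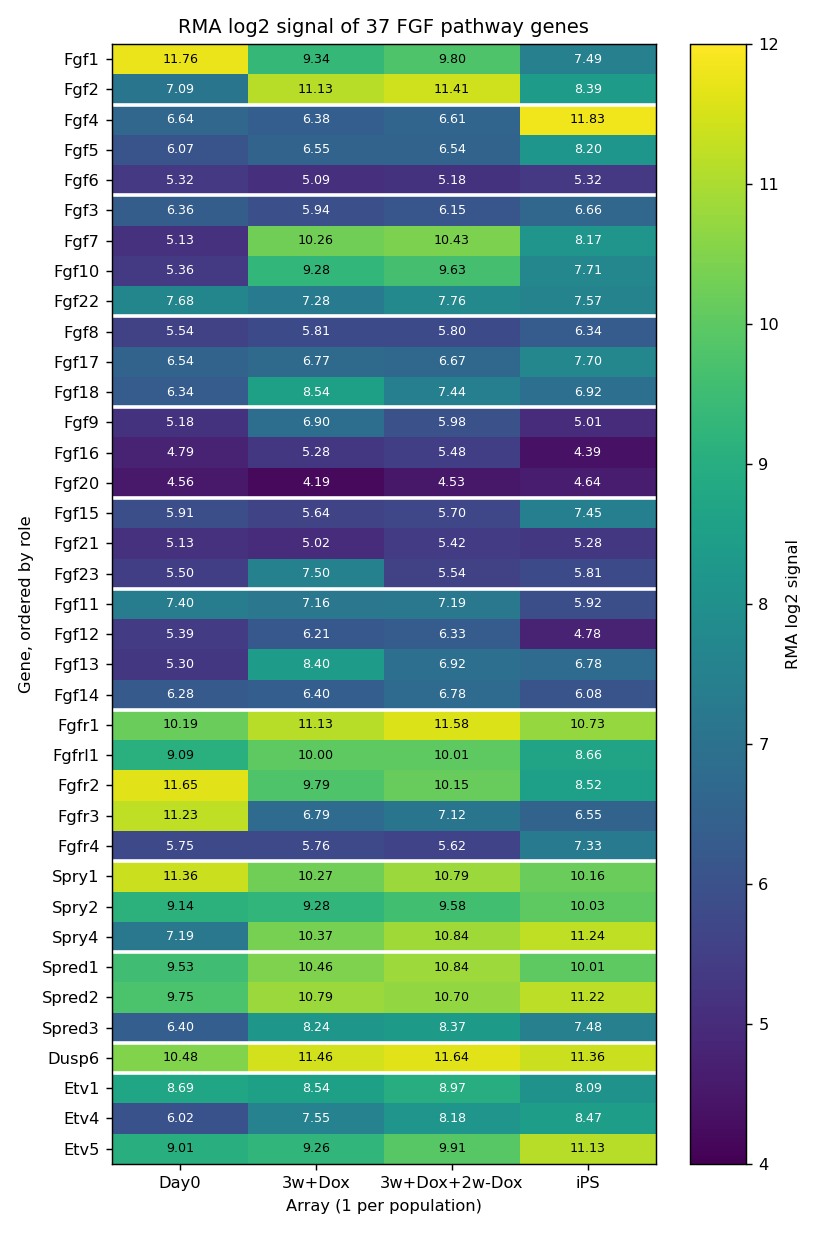
RMA log2 signal of each of the 37 members (rows, grouped by subfamily or role) on the 4 arrays (columns), with colour and number giving the same value. Fgf2, Fgf7 and Fgf10 are bright in both cultured club cell populations, Fgf4 reads 11.83 in iPS cells only, and Fgfr3 reads 11.23 at Day0 only.

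After 3 weeks with doxycycline, the mesenchymal ligand genes Fgf7 and Fgf10 and the broadly acting Fgf2 were among the members with the largest gains over Day0, the feedback gene Spry4 was 9.03-fold higher, and the receptor gene Fgfr3 was 21.8-fold lower. In all, 7 of the 37 members (18.9%) were at least 4-fold higher at 3w+Dox, where 4.31% of all named genes were, and 2 (5.41%) were at least 4-fold lower, where 2.88% were. At 2-fold, 11 members were higher and 4 lower, beside 8.67% and 7.52% of all genes. The median difference of the members was 0.27, beside -0.09 over all genes.

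Fgf7 (Entrez gene 14178), also known as keratinocyte growth factor, read 5.13 on the Day0 array, 10.26 at 3w+Dox, 10.43 after withdrawal and 8.17 in iPS cells. It gained 35.0-fold between Day0 and 3w+Dox, the largest gain of any member in this comparison, and only its Day0 signal lay below the median of all values. Its close relative Fgf10 (Entrez gene 14165) read 5.36, 9.28, 9.63 and 7.71 on the same arrays, a 15.1-fold gain. Fgf2 (Entrez gene 14173), the basic FGF, which supports the growth of many mesenchymal cells, read 7.09, 11.13, 11.41 and 8.39, a 16.4-fold gain. For each of these 3 genes both cultured club cell arrays lay above iPS, and Day0 was the lowest. The other 2 genes of the Fgf7 subfamily did not share this pattern. Fgf22, a ligand known from the brain, lay between 7.28 and 7.76 and Fgf3, a ligand of embryonic patterning, between 5.94 and 6.66 over the 4 arrays.

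Markers of fibroblasts were far higher on the same array. Of 16 fibroblast and mesenchymal markers, 15 were higher by at least 4-fold at 3w+Dox, beside 4.31% of all genes. The log2 of their summed linear signal was 10.46 at Day0, 15.86 at 3w+Dox, 15.87 after withdrawal and 14.30 in iPS cells. The mesenchymal receptor gene Pdgfra read 5.64, 10.53, 10.87 and 8.73. This is the same order of arrays as for Fgf7, Fgf10 and Fgf2. Not every marker of the list shared it. Col1a1 read 6.73, 12.84, 12.53 and 9.76, and differences between withdrawn and 3w+Dox cells ran from -0.48 to 0.59 over the 16 markers. Of 13 measured macrophage and leukocyte markers, 12 were at least 4-fold higher at 3w+Dox (4.31% of all genes) and 1 was at least 2-fold lower (7.52%). Their summed signal was 11.54, 13.86, 14.32 and 11.94. For 10 endothelial markers it was 11.80, 11.04, 11.07 and 11.72, but these sums join markers that differed in opposite directions. In iPS cells against Day0, 3 of the 10 were at least 4-fold higher and 1 was lower, beside 4.89% and 5.90% of all genes. No marker of these lists is at 0, since RMA gives no zero. The part of these cell types in the ligand signals was not tested, and with bulk RNA more cells of a type and more RNA per cell cannot be told apart.

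A second set of ligand-family genes was higher at 3w+Dox and lower again on the withdrawn array. Fgf18 (Entrez gene 14172), a ligand active in the developing alveoli and in cartilage, read 6.34 on the Day0 array, 8.54 at 3w+Dox, 7.44 after withdrawal and 6.92 in iPS cells. Fgf23 (Entrez gene 64654), the phosphate-regulating hormone of bone, read 5.50, 7.50, 5.54 and 5.81, so that it was above the median of all values at 3w+Dox only. Fgf13 (Entrez gene 14168), an intracellular family member that binds sodium channels and microtubules, read 5.30, 8.40, 6.92 and 6.78. Their gains at 3w+Dox were 4.58-fold, 4.02-fold and 8.60-fold. None of these 3 genes reached 8.82, the 75th percentile of all values, on any array, and a filter there ends all 3 calls. The Fgf23 difference of 2.01 lies at the threshold, and its call is also lost after a second quantile normalization (1.97) or after centring the arrays on their brighter genes (1.98). Fgf9, a ligand that signals from epithelium and mesothelium to lung mesenchyme, was likewise highest at 3w+Dox, with 5.18, 6.90, 5.98 and 5.01, and was 3.29-fold higher.

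Fgf1 was the only Fgf gene at least 4-fold lower at 3w+Dox. This acidic FGF (Entrez gene 14164), which can bind all FGF receptors, read 11.76 on the Day0 array, 9.34 at 3w+Dox, 9.80 after withdrawal and 7.49 in iPS cells. It was 5.33-fold lower at 3w+Dox, while its subfamily partner Fgf2 was 16.4-fold higher.

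**Figure D2:**
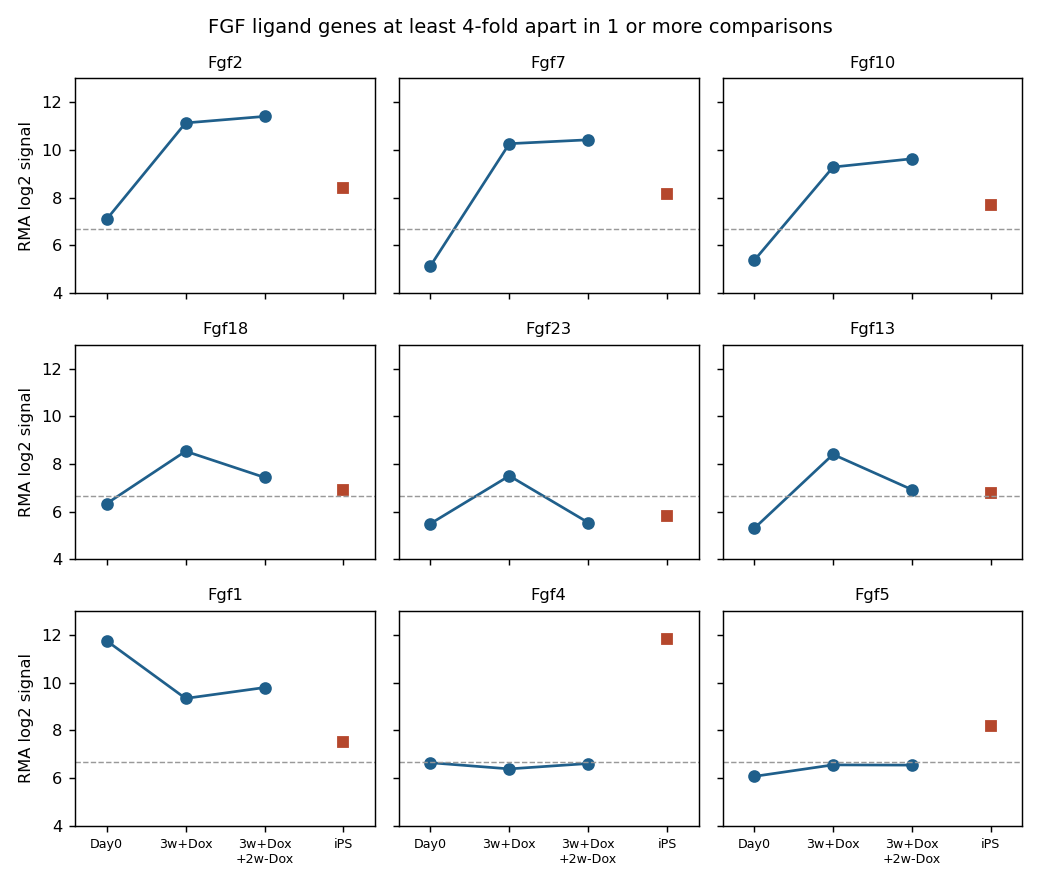
RMA log2 signal (vertical axis) of the 9 Fgf genes that were at least 4-fold apart in 1 or more comparisons, on each array (horizontal axis). Circles joined by a line are Day0, 3w+Dox and the withdrawn cells, the square is iPS, and the dashed line is the median of all values (6.67); each point is 1 array and has no error bar. Fgf2, Fgf7 and Fgf10 hold their 3w+Dox signal in withdrawn cells, whereas Fgf18, Fgf23 and Fgf13 are lower there, and Fgf4 and Fgf5 are bright in iPS cells.

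Of the 5 receptor genes, 2 were at least 2-fold lower at 3w+Dox than on the Day0 array, beside 7.52% of all genes. At least 2-fold higher were 0, beside 8.67%. Fgfr3 (Entrez gene 14184), a receptor with epithelial and cartilage roles, read 11.23 on the Day0 array, 6.79 at 3w+Dox, 7.12 after withdrawal and 6.55 in iPS cells, so Day0 stood apart from all 3 cultured populations. Fgfr2 (Entrez gene 14183), the receptor through which Fgf7 and Fgf10 act on lung epithelium, read 11.65, 9.79, 10.15 and 8.52. Its signal at 3w+Dox was 3.63-fold below Day0, just short of the 4-fold rule. Fgfr1 (Entrez gene 14182), which is typical of mesenchyme and of pluripotent cells, was brighter in all cultures than at Day0, with 10.19, 11.13, 11.58 and 10.73. Fgfrl1, a receptor-like protein without a kinase domain, read 9.09, 10.00, 10.01 and 8.66. The differences of Fgfr1 and Fgfrl1 at 3w+Dox were 0.94 and 0.92, each less than 2-fold. Fgfr4, the liver receptor of endocrine FGFs, was dim at 5.75, 5.76 and 5.62 on the club cell arrays and read 7.33 in iPS cells. The probe sets read whole genes, so the IIIb and IIIc splice forms, which set which ligand a receptor binds, are not separated.

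Summed marker signals of 3 epithelial cell types, club, ciliated and alveolar type 2, were also lower on the arrays with lower Fgfr3 and Fgfr2. The steps were not the same. The log2 of the summed signal of 10 club cell markers was 16.51 at Day0, 15.02 at 3w+Dox, 15.24 after withdrawal and 9.62 in iPS cells. For 10 ciliated cell markers it was 14.10, 10.69, 12.73 and 10.24, and for 9 alveolar type 2 markers other than Etv5 it was 15.78, 15.05, 15.32 and 10.69. Of these 9, 0 were at least 4-fold lower at 3w+Dox than at Day0 (2.88% of all genes) and 4 were at least 2-fold lower (7.52%). Sftpc among them read 13.49, 13.39, 13.54 and 5.50. For 8 alveolar type 1 markers the log2 sum was 14.16, 13.95, 14.12 and 11.99, close together on the club cell arrays. This sum joins markers that differed in opposite directions. At 3w+Dox against Day0, 2 of the 8 were at least 2-fold higher (8.67% of all genes) and 3 lower (7.52%). Their differences ran from -2.09 to 4.53. The summed signal of 7 basal cell markers was instead lowest at Day0, with 10.04, 12.02, 10.71 and 11.75. This sum does not give the direction of every marker. Between Day0 and 3w+Dox, 2 of the 7 gained 2-fold or more (8.67% of all genes) and 0 lost as much (7.52%). The other 5 were not counted at 2-fold. The median difference of the 7 was 0.47, with a range from -0.27 to 2.94. Between 3w+Dox and withdrawn cells, 1 gained 2-fold or more (1.45% of all genes) and 2 lost as much (1.88%). Epcam, an epithelial adhesion gene, read 11.19, 10.77, 10.18 and 10.95. No marker of these 5 lists is at 0, and their part in the receptor signals was not tested.

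Among the feedback genes, Spry4 stood apart. Spry4 (Entrez gene 24066), a Sprouty inhibitor of the RAS-ERK cascade, read 7.19 on the Day0 array, 10.37 at 3w+Dox, 10.84 after withdrawal and 11.24 in iPS cells, with Day0 far below the other 3 arrays. Spry1, another Sprouty gene, had its highest signal at Day0 and read 11.36, 10.27, 10.79 and 10.16. Spry2 stayed within 0.89 over all arrays, with 9.14, 9.28, 9.58 and 10.03. Sprouty genes thus differed in both directions between 3w+Dox and Day0, by 3.18 for Spry4, by 0.13 for Spry2 and by -1.09 for Spry1.

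The Spred genes, whose proteins bind neurofibromin and hold back RAS, were all brighter at 3w+Dox than at Day0, though none by 4-fold. Spred1 read 9.53 on the Day0 array, 10.46 at 3w+Dox, 10.84 after withdrawal and 10.01 in iPS cells. Spred2 read 9.75, 10.79, 10.70 and 11.22. Spred3, whose Day0 signal was below the median of all values, read 6.40, 8.24, 8.37 and 7.48 and was 3.58-fold higher at 3w+Dox. Dusp6, which removes the activating phosphates from ERK, read 10.48, 11.46, 11.64 and 11.36, so that Day0 was the lowest array and the other 3 lay close together.

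The ETS factors of the PEA3 group, known as FGF targets in the lung bud, differed among themselves. Etv4 (Entrez gene 18612) read 6.02 on the Day0 array, 7.55 at 3w+Dox, 8.18 after withdrawal and 8.47 in iPS cells. Etv5 (Entrez gene 104156), also a regulator of alveolar type 2 cells, read 9.01, 9.26, 9.91 and 11.13. Both genes had Day0 as the lowest and iPS as the highest array. Etv1 did not share this order and read 8.69, 8.54, 8.97 and 8.09. Over the 10 feedback and target genes, Spry4 alone was at least 4-fold higher at 3w+Dox (4.31% of all genes), 4 were 2-fold or more higher (8.67% of all genes) and Spry1 alone was lower by as much (7.52%); their median difference was 0.95.

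**Figure D3:**
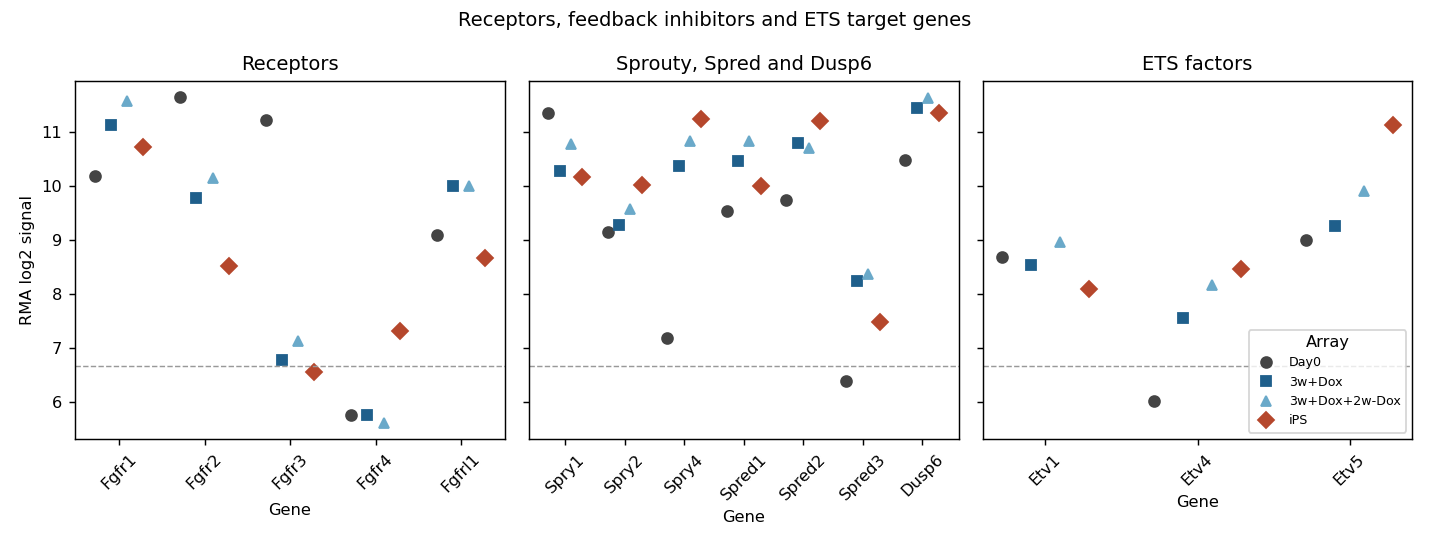
RMA log2 signal (vertical axis) of the 5 receptor genes, 7 Sprouty, Spred and Dusp6 genes and 3 ETS factor genes (horizontal axis), with 1 symbol per array and no error bars; the dashed line is the median of all values (6.67). Day0 is the highest array for Fgfr2, Fgfr3 and Spry1 and the lowest for Fgfr1, Spry2, Spry4, Spred1, Spred2, Spred3, Dusp6, Etv4 and Etv5.

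The comparison of withdrawn with 3w+Dox cells asks what differed after 2 weeks without the drug. No member was 4-fold higher or lower, which is near the shares of all genes, 0.302% and 0.470%. At 2-fold, 0 members were higher, beside 1.45% of all genes, and 3 were lower, beside 1.88%. These 3 were Fgf23, Fgf13 and Fgf18, with differences of -1.96, -1.48 and -1.10. Fgf9 stood at -0.93. This comparison shares the 3w+Dox array with the one against Day0, so a deviation of that array would enter both with opposite sign. Fgf7, Fgf10 and Fgf2 differed by 0.16, 0.35 and 0.27, Fgfr3 by 0.34 and Spry4 by 0.48. The fibroblast markers likewise showed no member 2-fold apart, with a median of 0.16. The largest gains among members were those of Etv5 (0.65) and Etv4 (0.63), both under 2-fold. The members' median was 0.21, beside 0.03 over all genes.

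Withdrawn cells were therefore set against Day0 directly. Higher by at least 4-fold were 5 members (13.5%, beside 4.05% of all genes), and 1 was lower (2.70%, beside 1.85%). Fgf7 was 39.2-fold, Fgf2 19.9-fold, Fgf10 19.2-fold and Spry4 12.6-fold higher. Etv4 was 4.47-fold higher, a call that is lost with the filter at the 75th percentile. Fgfr3 was 17.3-fold lower. Fgf1 and Spred3 fell just short of the threshold, at -1.96 and 1.98. Fgf23 was back at its Day0 signal, with a difference of 0.04, and Fgf18 and Fgf13 were still above Day0 by 1.10 and 1.63. At 2-fold, 11 members were higher (7.85% of all genes) and 3 were lower (7.76%). Fgfr1, Spred1 and Dusp6 were among the higher, with 2.63-fold, 2.48-fold and 2.23-fold. The median was 0.47, beside -0.08 over all genes.

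In iPS cells the leading ligand gene was a different one. Fgf4 (Entrez gene 14175), which pluripotent cells make and respond to, read 6.64 on the Day0 array, 6.38 at 3w+Dox, 6.61 after withdrawal and 11.83 in iPS cells. It was 36.5-fold above Day0 and 43.6-fold above 3w+Dox, and the 3 club cell arrays all lay below the median of all values. Fgf5 (Entrez gene 14176), a marker of the primed epiblast that follows the naive state, read 6.07, 6.55, 6.54 and 8.20, so iPS was again the brightest array, by 4.37-fold over Day0. Fgf15 (Entrez gene 14170), the gut hormone that controls bile acid synthesis, read 5.91, 5.64, 5.70 and 7.45, and Fgf17, a relative of Fgf8, read 6.54, 6.77, 6.67 and 7.70. Fgf8 itself, a ligand of gastrulation, stayed between 5.54 and 6.34. Of 12 pluripotency markers, 9 were at least 4-fold above Day0 in iPS cells, beside 4.89% of all genes. The log2 of their summed signal was 11.50, 11.27, 10.33 and 15.10 on the arrays in the same order, with no marker at 0.

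Over all members, 7 were at least 4-fold higher in iPS cells than at Day0 (18.9%, beside 4.89% of all genes) and 3 were lower (8.11%, beside 5.90%). The higher ones were Fgf4, Fgf5, Fgf7, Fgf10, Spry4, Etv4 and Etv5. Spry4 was 16.6-fold, Etv4 5.47-fold and Etv5 4.33-fold above Day0. Fgf7 and Fgf10 were 8.18-fold and 5.08-fold above Day0, and 11 of 16 fibroblast markers were at least 4-fold above Day0 on this array as well; their part in these signals was not tested. Calls for Fgf5, Fgf7, Fgf10 and Etv4 are lost with the filter at the 75th percentile. The lower ones were Fgfr3 (25.7-fold), Fgf1 (19.2-fold) and Fgfr2 (8.72-fold). At 2-fold, 14 members were higher (13.1% of all genes) and 5 lower (12.4%). Fgfr4 was among the higher (2.97-fold) and Fgf11, an intracellular family member, among the lower (2.80-fold). The median was 0.54, beside 0.00 over all genes.

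**Figure D4:**
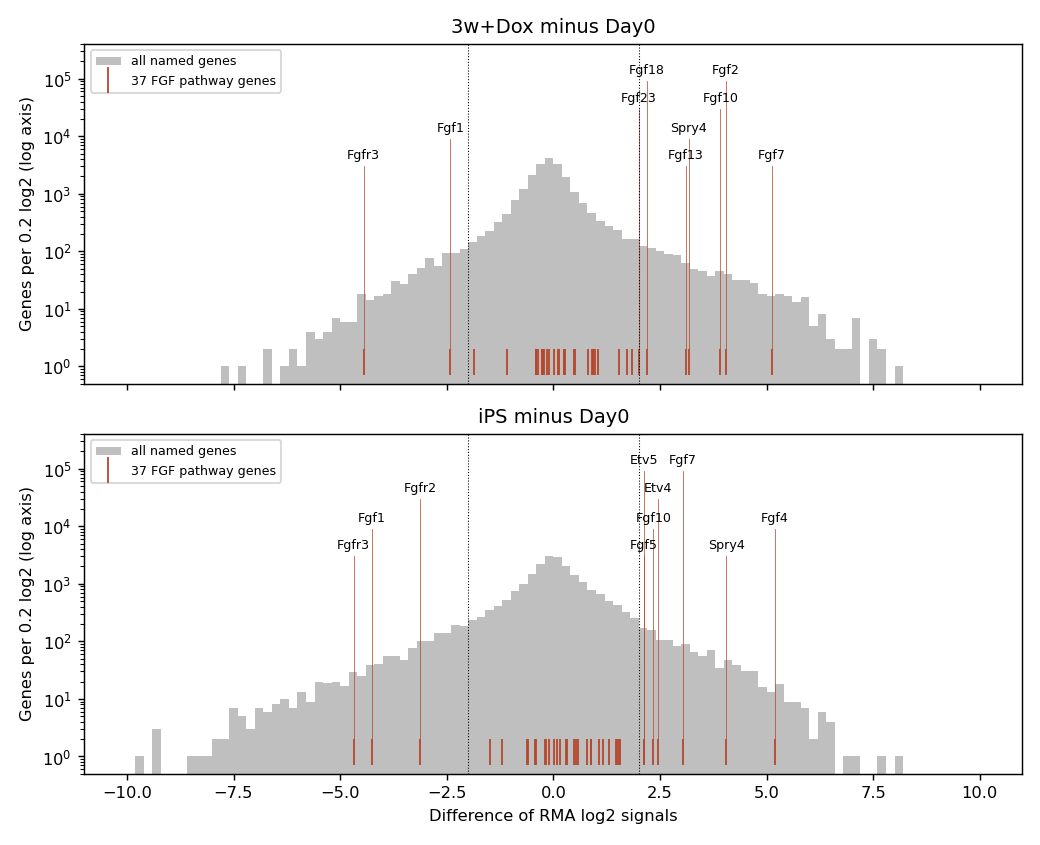
Histogram of the difference of RMA log2 signals (horizontal axis) over all 23185 named genes, as genes per bin on a log axis (vertical), for 3w+Dox minus Day0 (top) and iPS minus Day0 (bottom), with red ticks for the 37 members. Dotted lines mark a 4-fold difference and names mark members beyond it, from Fgfr3 at -4.45 to Fgf7 at 5.13 in the top panel and from Fgfr3 at -4.69 to Fgf4 at 5.19 in the bottom panel.

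Set against 3w+Dox, iPS cells had 1 member at least 4-fold higher (2.70%, beside 3.57% of all genes), which was Fgf4, and 2 at least 4-fold lower (5.41%, beside 5.16%), which were Fgf2 (6.70-fold) and Fgf7 (4.28-fold). At 2-fold, 5 members were higher (13.5%, beside 11.4% of all genes) and 11 lower (29.7%, beside 12.4%). The members' shares were thus near those of all genes at 4-fold and among the higher at 2-fold, and above that of all genes among those 2-fold lower. Etv5 was higher by 1.87, Fgf15 by 1.82, Fgf5 by 1.64 and Fgfr4 by 1.56. Fgf9, Fgf1, Fgf23, Fgf13, Fgf18 and Fgf10 were lower, with differences from -1.89 to -1.57, and Fgfrl1, Fgfr2 and Fgf11 from -1.34 to -1.25. Spry4 and Dusp6 differed by 0.88 and -0.10. The median was -0.24, beside 0.06 over all genes.

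Of the 22 Fgf genes, 13 were not 4-fold apart in any of 5 comparisons, and the matching share of all genes was not counted. The 13 genes are Fgf3, Fgf6, Fgf8, Fgf9, Fgf11, Fgf12, Fgf14, Fgf15, Fgf16, Fgf17, Fgf20, Fgf21 and Fgf22, with signals from 4.19 to 7.76 and a range of at most 1.89 over the arrays. For 7 of them (Fgf3, Fgf6, Fgf8, Fgf12, Fgf16, Fgf20 and Fgf21) every signal was below the median of all values, so a difference at that level would be hard to see and could not be counted under the filter. These include Fgf20, a ligand of the Fgf9 subfamily, and Fgf21, a metabolic hormone of liver, which lay between 5.02 and 5.42. All 5 receptor genes and all 10 feedback and target genes reached the median on at least 1 array.

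The rest of the pathway was described with 5 lists of genes that are not members. Of 17 coreceptors and FGF-binding proteins, 6 were at least 4-fold above Day0 at 3w+Dox (4.31% of all genes) and 0 below (2.88%), with a median of 0.62. The largest gains were those of Gpc6, a glypican (40.7-fold), Sdc3, a syndecan (32.2-fold), Flrt2, a membrane protein that can bind FGF receptors (30.1-fold), and Gpc3, a glypican (16.2-fold). Fgfbp1, a carrier that releases FGFs from the matrix, was lower in the cultures, with 9.22 at Day0, 7.30 at 3w+Dox, 5.44 after withdrawal and 7.35 in iPS cells. Among 14 measured enzymes of heparan sulfate, 3 were at least 4-fold higher at 3w+Dox and 0 lower, beside the same shares of all genes, with a median of 0.73. Sulf1, which removes sulfate groups from heparan sulfate, read 5.70, 11.24, 11.51 and 9.26, and Hs6st2, which adds them, read 7.29, 9.80, 10.08 and 6.70. In withdrawn cells against Day0, 6 coreceptor genes were at least 4-fold higher and 1, Fgfbp1, was lower, beside 4.05% and 1.85% of all genes. In iPS cells against Day0 the counts were 4 and 1, beside 4.89% and 5.90%. For the heparan sulfate enzymes 4 and 1 were higher in the same comparisons and 0 lower. The fibroblast markers given above were higher on the same arrays, and their part was not tested.

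Of 16 measured adaptors and kinases that relay the signal from receptor to ERK, 0 were 4-fold apart in any of the 5 comparisons. Shares of all genes ran from 0.302% to 5.90% per comparison and direction, so a count of 0 is near them. At 2-fold, 1 relay gene was higher at 3w+Dox than on the Day0 array (8.67% of all genes) and 0 were lower (7.52%). Differences ran from -0.74 to 1.04. In iPS cells against Day0, 3 were 2-fold higher and 3 lower, with differences from -1.67 to 1.46, beside 13.1% and 12.4% of all genes. Against 3w+Dox, 2 were higher and 3 lower in iPS cells, with differences from -1.78 to 1.86, beside 11.4% and 12.4%. A further 7 genes of that list had no named probe set here and were not analysed. Among 12 other ERK feedback genes, 1 was at least 4-fold higher at 3w+Dox than on the Day0 array (4.31% of all genes) and 2 in iPS cells (4.89%), and 0 were lower by as much. At 2-fold, 2 of them were higher and 5 lower in iPS cells against Day0 (13.1% and 12.4% of all genes), with a median of -0.02. The 4-fold ones were Il17rd and Dusp9. Il17rd, also called Sef, an inhibitor of FGF signalling, read 6.20 on the Day0 array, 8.39 at 3w+Dox, 8.41 after withdrawal and 9.72 in iPS cells, with the same order of arrays as Spry4 and Etv4. Dusp9, an ERK phosphatase of embryonic stem cells, read 8.16, 6.73, 7.20 and 11.02. Among 11 other ERK response genes, 2 were at least 4-fold higher at 3w+Dox (4.31% of all genes) and 0 lower, namely Myc (9.02-fold, where RNA from a reprogramming transgene, if one was used, would not be separated) and Plaur, the urokinase receptor (5.97-fold). In iPS cells against Day0, 3 of these 11 were at least 4-fold lower (5.90% of all genes) and 0 higher, and at 2-fold 5 were lower and 2 higher, with a median of -0.90. The 3 lower by 4-fold were the immediate early genes Fos (-5.15), Egr2 (-5.14) and Egr1 (-3.38). A further immediate early gene, Egr3, differed by -0.90. Spry4, Etv4 and Etv5 were higher in the same cells. The 2 response genes higher at 2-fold in iPS cells were Myc (1.47) and Fosl1 (1.11).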

How the data were processed

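Per the submitters' processing notes, the authors made the deposited values with RMA in the affy package under R 3.0.2; the version of the probe set annotation is not given in the sources used here. Their deposited log2 scale was read from the values (1.70 to 13.85). Of 25206 probe sets, identified by Entrez gene numbers, 23185 had exactly 1 symbol in the platform annotation. The other 2021 were left out. Each gene had 1 probe set. Nothing was normalized again for the values reported. Differences of log2 signals were taken for 5 pairs of arrays in Python 3.11.15 with pandas 2.3.3 and counted by the rule in the text. A run on simulated data, with differences set well past the threshold in brighter genes, checked the counting code only. It does not bear on dim genes or on calls near the threshold. With 1 array per group no p-value was computed. Start-site windows were matched by symbol for 28 of 37 members. Values on all arrays are printed for members 4-fold apart in a comparison and for all receptor, feedback and target genes, and of each pathway list up to 4 counted genes per comparison are named. The choice of windows to print, and Fgf9, Fgf15, Fgf17, Fgf11 and Egr3 as further examples, was made after values were seen. The members and lists were chosen with earlier results of these data known.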

Additional observations from a re-analysis of the deposited data

How the results depend on the processing

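With 1 array per population no replicate could be left out, and no paired analysis was possible because each group has a single sample. Counts of members moved by over 1.5 times only with the threshold or the dim filter. At 2-fold they became 11 higher and 4 lower for 3w+Dox against Day0, 0 and 3 for withdrawn cells against 3w+Dox, 11 and 3 for withdrawn cells against Day0, 14 and 5 for iPS against Day0, and 5 and 11 for iPS against 3w+Dox. At 8-fold, 1 member was lower at 3w+Dox than at Day0, 3 were higher in iPS cells than at Day0, and 0 were lower in iPS cells than at 3w+Dox. With the filter at the 75th percentile (8.82), 4 members were higher for 3w+Dox against Day0 and 3 for iPS against Day0. Shares of all genes were not counted at 8-fold or with this filter, so these counts have none beside them. All 10 counts stayed within 1.5 times after a second quantile normalization, after centring on brighter genes, without the dim filter, and with values under the 25th percentile (5.07) raised to it. No counted difference changed direction in these runs. Leaving out the 7 members dim on every array moved the median difference to 0.70 for 3w+Dox against Day0, 0.65 for withdrawn cells against Day0, 0.88 for iPS against Day0 and -0.36 for iPS against 3w+Dox. Dim signals limit what can be seen in those 7 genes.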

Other observations

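Several members are neighbours in the genome, by the gene order of the RefSeq table, and neighbours did not always differ in the same direction. Fgf3, Fgf4 and Fgf15 follow each other with 0 protein-coding genes between them, and in iPS cells against Day0 they differed by 0.30, 5.19 and 1.54. Fgf6 and Fgf23 also adjoin, and at 3w+Dox against Day0 Fgf6 differed by -0.23 and Fgf23 by 2.01. Fgf2 and Spry1 are separated by 2 genes, Nudt6 and Spata5. At 3w+Dox against Day0, Fgf2 differed by 4.04 and Spry1 by -1.09, while Nudt6 and Spata5 between them differed by -0.22 and 0.42. Spry4 and Fgf1 lie near each other with 2 genes between them, of which Arhgap26 was measured. In iPS cells against Day0, Spry4 differed by 4.05 and Fgf1 by -4.26, with Arhgap26 at -0.16. This set of pairs was looked at after the values were known.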
